A study of Mus musculus with 4 samples.

Results

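The interleukin-1 (IL-1) family links signalling molecules of epithelial barriers and of white blood cells with the receptors that read them. A set of 10 of its genes was followed, taken by symbol from the 25571 genes in the table. They were Il1a, Il1b, Il1rn, Il1f5, Il1f6, Il1f9, Il18, Il33, Il1rl1 and Il1r2, and all 10 were measured in every library. RNA from mouse skin was sequenced in 1 library for each of 4 groups, marked by treatment as PRP-MNs, PRP, MNs and NC. The series title names platelet-rich plasma, a concentrate of blood platelets, as PRP, and microneedles, arrays of fine needles, as the second element. PRP-MNs joins both, PRP and MNs stand for each alone, and NC, which the labels do not spell out, was the reference. Strain, age, sex, number of animals per library, dose and time of harvest are not given in the sources used here.

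IL-1 alpha (Il1a) and IL-1 beta (Il1b) both signal through the receptor Il1r1, which pairs with the accessory chain Il1rap and passes the signal to Myd88 and NF-kB. Keratinocytes keep stores of IL-1 alpha, whereas IL-1 beta comes mainly from activated myeloid cells and needs cleavage, classically by caspase-1 in the inflammasome. The secreted antagonist Il1rn and the decoy receptor Il1r2 oppose both cytokines. The IL-36 cytokines, listed under their older symbols Il1f6 (IL-36 alpha), Il1f8 (IL-36 beta) and Il1f9 (IL-36 gamma), come mainly from keratinocytes, act through Il1rl2 and are opposed by Il1f5. IL-18 is stored in epidermis and bound by Il18bp. IL-33 is a nuclear alarm protein of barrier and stromal cells that signals through Il1rl1 (ST2) on mast cells and other leukocytes. On these textbook sources Il1b, Il1r2 and Il1rl1 were classed as the leukocyte members and Il1a, Il1f5, Il1f6, Il1f9, Il18 and Il33 as the epidermal members. Il1rn, which both cell types make, was kept apart.

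The promoters of 4 members are shown as examples, which do not cover every pattern found below. These are Il1b, Il1a, the IL-36 gene Il1f9 and the antagonist Il1rn. Each line gives the 250 bases before an annotated start, from RefSeq on GRCm38.p6, 5′ to 3′ on the strand of the gene. The stretches lie at chr2:129371140-129371389 (minus strand) for Il1b, chr2:129309973-129310222 (minus strand) for Il1a, chr2:24186226-24186475 (plus strand) for Il1f9 and chr2:24336610-24336859 (plus strand) for the most upstream of 3 starts of Il1rn. Capitals mark matches to any of 5 motifs searched on both strands. The NF-kB motif was GGGA and CC with any 4 bases between them. TGANTCA stood for AP-1 and, in the C/EBP search, the letters were TTNNGNAA. PU.1 was searched for as GAGGAA, which can overlap a C/EBP match. The TATA box was searched for as TATAAA.
Il1b: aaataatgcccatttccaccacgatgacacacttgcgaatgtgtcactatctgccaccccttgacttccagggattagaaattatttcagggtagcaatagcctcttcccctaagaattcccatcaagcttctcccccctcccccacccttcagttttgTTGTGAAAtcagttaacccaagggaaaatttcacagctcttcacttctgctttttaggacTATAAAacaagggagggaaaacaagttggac
Il1a: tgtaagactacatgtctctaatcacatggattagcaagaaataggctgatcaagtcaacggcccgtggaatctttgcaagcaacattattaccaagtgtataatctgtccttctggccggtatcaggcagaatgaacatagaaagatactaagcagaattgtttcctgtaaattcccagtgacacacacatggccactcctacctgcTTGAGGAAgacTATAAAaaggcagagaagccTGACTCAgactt
Il1f9: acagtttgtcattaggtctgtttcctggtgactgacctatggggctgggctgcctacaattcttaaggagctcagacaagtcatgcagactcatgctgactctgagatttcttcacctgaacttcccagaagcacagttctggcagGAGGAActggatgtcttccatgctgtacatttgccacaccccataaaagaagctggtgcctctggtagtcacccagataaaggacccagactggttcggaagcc
Il1rn: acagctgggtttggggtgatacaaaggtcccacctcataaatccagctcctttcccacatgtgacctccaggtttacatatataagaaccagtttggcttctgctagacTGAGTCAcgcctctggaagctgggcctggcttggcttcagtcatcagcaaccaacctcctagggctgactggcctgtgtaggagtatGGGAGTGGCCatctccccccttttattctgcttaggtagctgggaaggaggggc
The Il1b stretch held a C/EBP match from −91 to −84, counted from the start at +1, and a TATA match from −31 to −26. In Il1a a C/EBP match from −43 to −36 overlapped a PU.1 match, and was followed by TATA at −32 and AP-1 at −12. The capitals of Il1f9 are a PU.1 match at −104, and a further NF-kB match lay at +13, beyond the stretch shown. Il1rn had an AP-1 match at −141 and an NF-kB match at −54. Counting each window of 300 bases to 50 bases past the start, 3 of 14 promoters of 9 members held the NF-kB letters, 2 the AP-1, 9 the C/EBP, 4 the PU.1 and 6 the TATA letters. Among 32851 RefSeq promoters of the same length the shares were 20.7%, 7.81%, 40.7%, 28.3% and 13.6%. Some members count with several starts, and windows of Il1rn overlap and share C/EBP matches, so the 14 promoters are not independent. A match describes letters only and is not evidence of a bound site. Il1f6 is named without a promoter.

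Values are FPKM, in which fragment numbers are divided by transcript length and library size, so levels of different genes are compared per length. Steps in the low values put the depth at 15.9 to 19.3 M fragments per library. A transcript of 1 kb with 3 fragments would read 0.155 to 0.189 FPKM, a floor that covers counting error only. Differences are log2 ratios of FPKM + 1, which understate those of low genes, and genes below 1 FPKM in both libraries of a comparison were left untested. With 1 library per group there was no spread between replicates and no p-value, so every difference describes these libraries. A single NC library served all comparisons with NC, so a value high or low in it enters each of them. Skin keratins were abundant throughout, with Krt5 at 689 to 2348 FPKM. Bulk tissue was sequenced, so fewer cells of a type and less RNA per cell cannot be told apart.

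**Figure D1:**
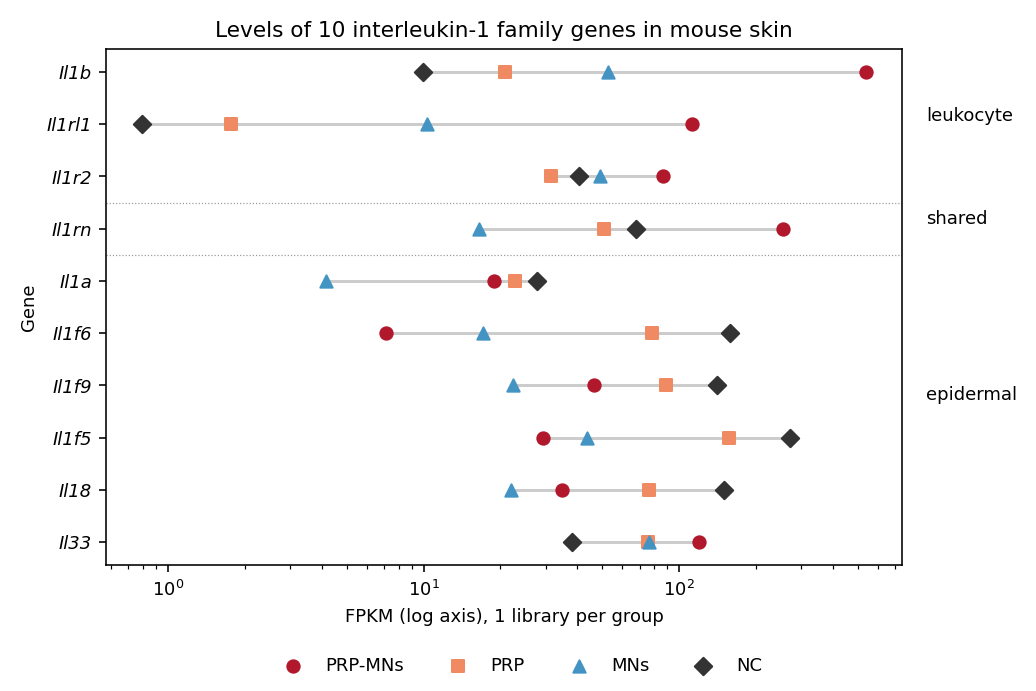
FPKM on a log axis of the 10 members in PRP-MNs (circles), PRP (squares), MNs (triangles) and NC (diamonds), 1 library each, with a grey line spanning the 4 values of a gene. Il1b and Il1rl1 were highest in PRP-MNs and lowest in NC, whereas Il1f6, Il1f9, Il1f5, Il18 and Il1a were highest in NC.

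PRP-MNs against NC asked how skin with both elements differed from the reference. The family split by source. All 3 leukocyte members were higher by 2-fold or more in PRP-MNs, and 4 of 6 epidermal members were lower by as much. Over all 10 members 5 were at least 2-fold higher, against 17.6% of 13981 genes tested, and 4 were at least 2-fold lower, against 11.5% of those genes. The median difference was 5.63 for the leukocyte members and −1.82 for the epidermal members, a gap of 7.45 on the log2 scale, beside a median of 0.14 over all genes tested. Il1rl1 was below 1 FPKM in NC and was tested through its PRP-MNs value alone. With 1 FPKM required in both libraries, 9 members remained, of which 4 were at least 2-fold higher and 4 lower. Of 11931 genes kept in this way, 1702 were higher and 1200 lower by as much. The exceptions in the epidermal class were Il33, which was higher, and Il1a, which was within 2-fold.

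The inflammatory cytokine gene Il1b stood at 539 FPKM in PRP-MNs skin, 20.8 FPKM in PRP skin, 52.5 FPKM in MNs skin and 9.94 FPKM in NC skin. PRP-MNs was thus far above the other 3 libraries, and MNs above PRP. Between PRP-MNs and NC the plain ratio was 54.2, and the log2 difference of 5.63 was the 32nd highest of 13981. The NC value rested on about 261 fragments, with a 95% Poisson interval of 8.78 to 11.2 FPKM, and the PRP-MNs value on about 12570 fragments. Such intervals cover counting error only.

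Il1a, the alarm cytokine stored by keratinocytes, did not share this pattern. Its level was 18.8 FPKM in PRP-MNs skin, 22.9 FPKM in PRP skin, 4.17 FPKM in MNs skin and 27.9 FPKM in NC skin. Only MNs stood apart, differing from NC by −2.48 on the log2 scale, while PRP-MNs differed from NC by −0.54 and PRP by −0.27. In MNs the interval from about 153 fragments was 3.54 to 4.89 FPKM. The ratio of Il1b to Il1a was 28.7 in PRP-MNs skin, 0.91 in PRP skin, 12.6 in MNs skin and 0.36 in NC skin, so Il1b exceeded Il1a in both libraries with microneedles and in neither of the others.

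Il1rn, the receptor antagonist, was read at 256 FPKM in PRP-MNs skin, 50.8 FPKM in PRP skin, 16.4 FPKM in MNs skin and 67.5 FPKM in NC skin. It was the only member with PRP-MNs highest and MNs lowest, a span of 15.6-fold between these libraries. The difference from NC was 1.91 in PRP-MNs skin, −0.40 in PRP skin and −1.97 in MNs skin. Relative to the sum of Il1a and Il1b, the 2 agonists it opposes, Il1rn stood at 0.46 in PRP-MNs skin, 1.16 in PRP skin, 0.29 in MNs skin and 1.78 in NC skin. The antagonist thus exceeded the agonists, in FPKM, in PRP and NC and lay below them in both libraries with microneedles. The table gives 1 value per gene, so the secreted and the intracellular forms of Il1rn cannot be told apart.

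Il1r2, the decoy that binds IL-1 without signalling, was at 86.5 FPKM in PRP-MNs skin, 31.7 FPKM in PRP skin, 48.8 FPKM in MNs skin and 40.7 FPKM in NC skin. Its range was the narrowest of the 10 members, 2.73-fold from PRP to PRP-MNs. PRP-MNs was 1.07 above NC, a difference of 0.93 when centred on the median of all genes. The signalling receptor Il1r1 was at 38.6 FPKM in PRP-MNs skin, 11.8 FPKM in PRP skin, 35.1 FPKM in MNs skin and 6.76 FPKM in NC skin. The ratio of decoy to signalling receptor was accordingly 2.24 in PRP-MNs skin, 2.68 in PRP skin, 1.39 in MNs skin and 6.03 in NC skin.

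**Figure D2:**
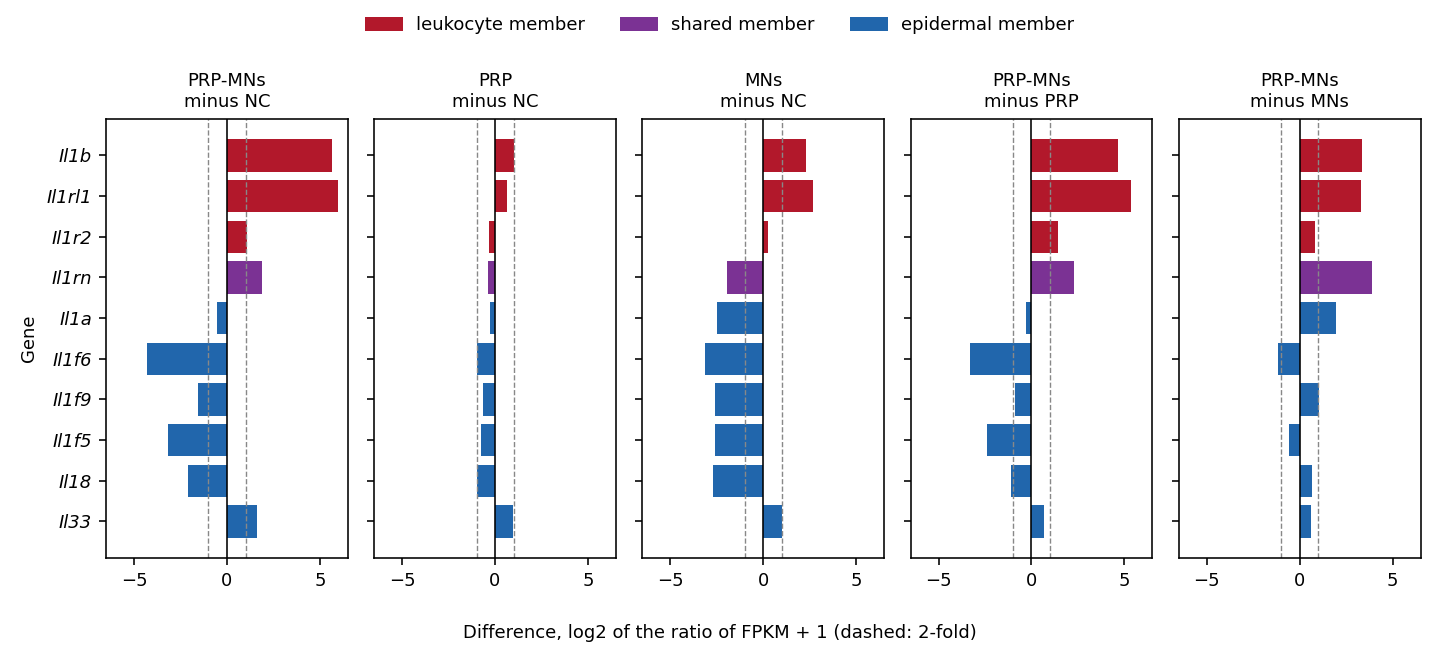
Log2 differences of FPKM + 1 for the 10 members in 5 comparisons, with leukocyte members in red, Il1rn in purple, epidermal members in blue and dashed lines at 2-fold. In PRP-MNs minus NC the 3 red bars point up and 5 of 6 blue bars point down, and in PRP minus NC no bar passes 2-fold.

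The IL-36 group was lower in PRP-MNs than in NC throughout. Il1f6, which encodes IL-36 alpha, was at 7.15 FPKM in PRP-MNs skin, 78.4 FPKM in PRP skin, 17.0 FPKM in MNs skin and 157 FPKM in NC skin. It was 22.0-fold lower in PRP-MNs than in NC, and its log2 difference of −4.28 was the 4th lowest of the 13981 genes. About 109 fragments lay behind the PRP-MNs value, an interval of 5.89 to 8.66 FPKM, so the 4 libraries were separated beyond counting error.

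Il1f9, the gene of IL-36 gamma, stood at 46.5 FPKM in PRP-MNs skin, 88.4 FPKM in PRP skin, 22.4 FPKM in MNs skin and 140.0 FPKM in NC skin. Its lowest library was MNs rather than PRP-MNs, with differences from NC of −1.57 in PRP-MNs skin, −0.66 in PRP skin and −2.59 in MNs skin. Il1f8, the remaining agonist, was at 14.6 FPKM in PRP-MNs skin, 51.7 FPKM in PRP skin, 19.3 FPKM in MNs skin and 123 FPKM in NC skin. The order of Il1f8 was that of Il1f6, NC above PRP above MNs above PRP-MNs. The 3 agonists summed to 68.3 FPKM in PRP-MNs skin, 218.5 FPKM in PRP skin, 58.7 FPKM in MNs skin and 420.2 FPKM in NC skin.

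Il1f5, the antagonist of the IL-36 receptor, was the most abundant member in NC. Its level was 29.4 FPKM in PRP-MNs skin, 156.8 FPKM in PRP skin, 43.7 FPKM in MNs skin and 270.5 FPKM in NC skin, and its differences from NC were −3.16, −0.78 and −2.60 in PRP-MNs skin, PRP and MNs. Antagonist and agonists were low in the same libraries. The ratio of Il1f5 to the summed agonists was 0.43 in PRP-MNs skin, 0.72 in PRP skin, 0.74 in MNs skin and 0.64 in NC skin, a narrower range than that of either part. The IL-36 receptor gene Il1rl2 was at 26.4 FPKM in PRP-MNs skin, 49.2 FPKM in PRP skin, 44.7 FPKM in MNs skin and 56.6 FPKM in NC skin, and only PRP-MNs was past 2-fold (−1.07). Il1f10, which encodes IL-38 and lies in the same cluster, was at 1.19 FPKM in PRP-MNs skin, 8.55 FPKM in PRP skin, 1.08 FPKM in MNs skin and 17.3 FPKM in NC skin.

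Il18, a cytokine that drives interferon gamma in lymphocytes, was at 34.8 FPKM in PRP-MNs skin, 76.4 FPKM in PRP skin, 22.0 FPKM in MNs skin and 150.0 FPKM in NC skin. Its differences from NC were −2.08 in PRP-MNs skin, −0.96 in PRP skin and −2.71 in MNs skin. The soluble inhibitor Il18bp was ordered otherwise, at 18.9 FPKM in PRP-MNs skin, 7.47 FPKM in PRP skin, 3.58 FPKM in MNs skin and 2.02 FPKM in NC skin. The ratio of inhibitor to cytokine was 0.54 in PRP-MNs skin, 0.098 in PRP skin, 0.16 in MNs skin and 0.013 in NC skin, highest where both elements were combined. Whether strands were kept apart is not given in the sources used here. Bco2 overlaps Il18 on the other strand and was at 0.58 to 3.46 FPKM, and Numa1 overlaps Il18bp and was at 17.3 to 22.1 FPKM, so Il18bp in particular is uncertain. Antisense genes also overlap Il1a, Il1b, Il1r2 and Il1rap and were not analysed here.

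Il33, the nuclear alarm cytokine, was the epidermal member that ran the other way, at 119 FPKM in PRP-MNs skin, 75.2 FPKM in PRP skin, 76.5 FPKM in MNs skin and 38.2 FPKM in NC skin. Its differences from NC were 1.62 in PRP-MNs skin, 0.96 in PRP skin and 0.98 in MNs skin, the last 2 just inside 2-fold. PRP and MNs were nearly level and lay between PRP-MNs and NC.

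Its receptor gene Il1rl1 was at 112 FPKM in PRP-MNs skin, 1.77 FPKM in PRP skin, 10.3 FPKM in MNs skin and 0.79 FPKM in NC skin. The log2 difference between PRP-MNs and NC was 5.98, the 23rd highest of 13981, and the plain ratio was 141.0. PRP-MNs stood above MNs, and MNs above PRP and NC, an order shared with Il1b. Il1rl1 has transcripts for a membrane receptor and for a soluble decoy, which 1 value per gene cannot tell apart.

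**Figure D3:**
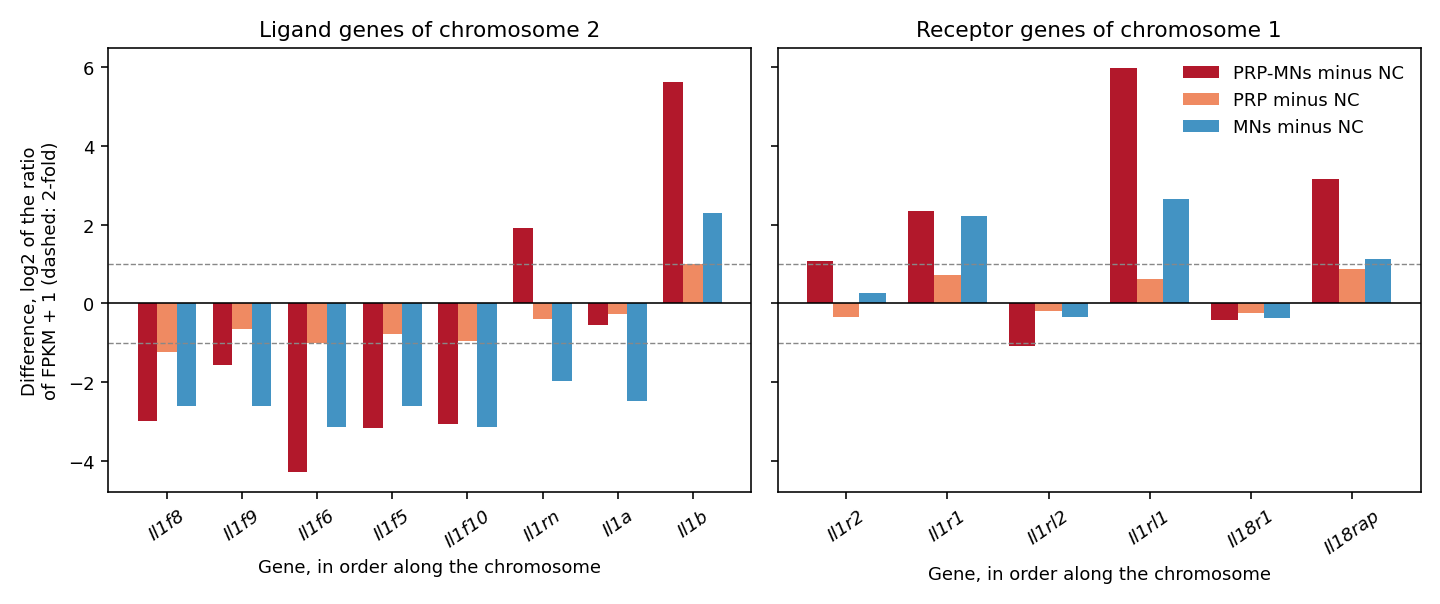
Log2 differences from NC of the ligand genes of chromosome 2 (left) and the receptor genes of chromosome 1 (right), in order along each chromosome and not to scale, for PRP-MNs (red), PRP (orange) and MNs (blue), with dashed lines at 2-fold. The 5 genes from Il1f8 to Il1f10 were lower in every comparison, and the neighbouring Il1rn was higher in PRP-MNs.

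Neighbouring genes could be compared, since 4 ligand members lie close together on chromosome 2 and 2 receptor members on chromosome 1. On GRCm38 the plus strand of chromosome 2 carries Il1f8 (24153161 to 24160519), Il1f9 (24186476 to 24193568), Il1f6 (24215418 to 24225702), Il1f5 (24276954 to 24283426), Il1f10 (24291196 to 24293820) and Il1rn (24336853 to 24351494). The first 5 differed between PRP-MNs and NC by −1.57 (Il1f9) to −4.28 (Il1f6), whereas Il1rn at the end of the row differed by 1.91. In MNs all 6 were lower than in NC, with differences of −1.97 (Il1rn) to −3.14 (Il1f10). Il1a (129299610 to 129309972) and Il1b (129364570 to 129371139) lie far from that row on the minus strand of the same chromosome. This neighbouring pair differed from NC by −0.54 and 5.63 in PRP-MNs skin, and by −2.48 and 2.29 in MNs skin.

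The receptor cluster lies on the plus strand of chromosome 1, in the order Il1r2 (40074079 to 40125231), Il1r1 (40225080 to 40317257), Il1rl2 (40324610 to 40367562), Il1rl1 (40429570 to 40465415), Il18r1 (40465552 to 40500854) and Il18rap (40515362 to 40551705). Differences between PRP-MNs and NC along that row were 1.07, 2.35, −1.07, 5.98, −0.42 and 3.16. Neighbours thus differed in size and direction, as with Il1rl1 beside Il18r1. Of the remaining members, Il18 lies on the plus strand of chromosome 9 (50554827 to 50581840) and Il33 on the plus strand of chromosome 19 (29925114 to 29960718).

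**Figure D4:**
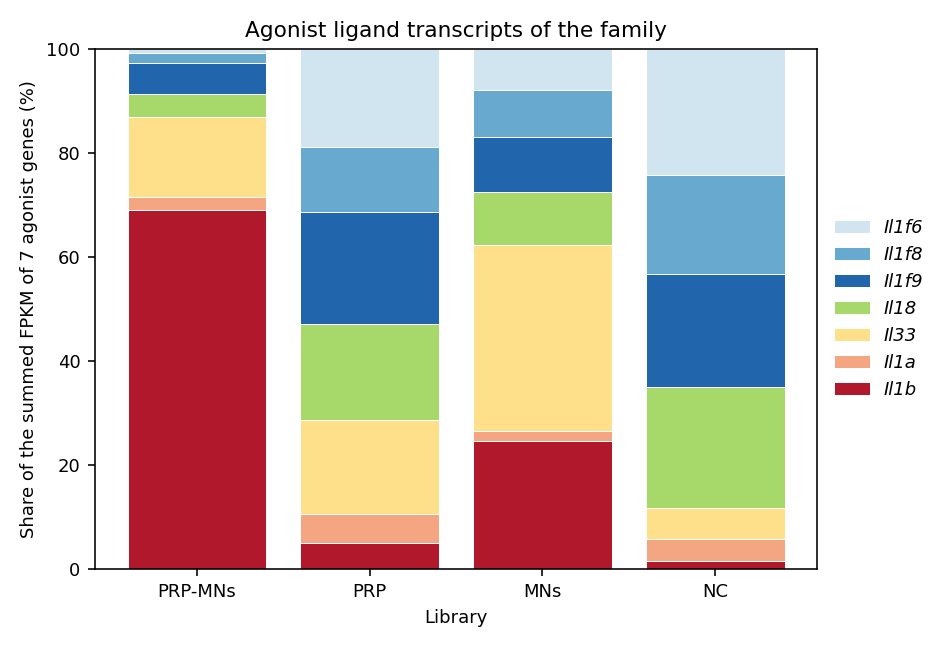
Share of the summed FPKM of 7 agonist genes taken by each gene in the 4 libraries, as stacked bars from 0 to 100%. Il1b filled 69.1% of the bar in PRP-MNs, and Il1f6, Il1f8 and Il1f9 together filled 65.0% in NC skin.

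The make-up of the agonist pool was different in each library. Il1a, Il1b, Il1f6, Il1f8, Il1f9, Il18 and Il33 summed to 780 FPKM in PRP-MNs skin, 414 FPKM in PRP skin, 214 FPKM in MNs skin and 646 FPKM in NC skin. Il1b took 69.1% of this sum in PRP-MNs, 5.03% in PRP skin, 24.5% in MNs skin and 1.54% in NC skin. The IL-36 agonists took 8.76% in PRP-MNs skin, 52.8% in PRP skin, 27.4% in MNs skin and 65.0% in NC skin. PRP-MNs and NC had the largest sums with nearly opposite make-up, whereas in MNs, with the smallest sum, Il33 led at 35.8%. These shares are of transcripts per length and not of protein, and several of the cytokines need processing to act.

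PRP against NC asked what skin given PRP without needles showed. No member was at least 2-fold higher, against 7.78% of 13533 genes tested, and none was at least 2-fold lower, against 1.46%. Both counts sat on the edge of the threshold of 1 on the log2 scale, with Il1b at 0.996 and Il1f6 at −0.996. With a pseudocount of 0.1 Il1b (1.06), Il1rl1 (1.07) and Il1f6 passed it. The epidermal members other than Il33 were all lower, from Il1a at −0.27 to Il1f6. The median was 0.63 for the leukocyte members and −0.72 for the epidermal members, a gap of 1.35, which fell below 1 under 2 of the alternatives (0.93 with a pseudocount of 5 and 0.86 with Il1rn counted among the leukocyte members).

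MNs against NC asked what microneedles without PRP showed. Of the 10 members 2 were at least 2-fold higher, against 15.7% of 13925 genes tested, and 6 were at least 2-fold lower, against 7.12%. The higher ones were Il1b and Il1rl1, the latter below 1 FPKM in NC and tested through its MNs value alone. With 1 FPKM required in both libraries, 9 members remained, of which 1 was at least 2-fold higher and 6 lower. Of 12163 genes kept in this way, 1583 were higher and 763 lower by as much. The lower ones were Il1a, Il1rn, Il1f5, Il1f6, Il1f9 and Il18, with differences of −1.97 (Il1rn) to −3.13 (Il1f6). Among all genes 2188 were higher and 991 lower past 2-fold, or 1729 and 1261 once centred on the median, and the members' counts were the same after centring. The median of the leukocyte members was 2.29 and that of the epidermal members −2.60, a gap of 4.89. Relative to NC, Il1a, Il1f9 and Il18 were lower in MNs than in PRP-MNs, whereas Il1f5 and Il1f6 were lower in PRP-MNs.

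PRP-MNs against PRP asked what needles added to PRP. At least 2-fold higher were 4 members, against 9.54% of 13861 genes, and 3 were at least 2-fold lower, against 7.5%. Il1rl1 differed by 5.35 and Il1b by 4.63, the 4th and 10th highest of all genes tested in that comparison. Il1rn was higher by 2.31 and Il1r2 by 1.42. Il1f6 (−3.28), Il1f5 (−2.38) and Il18 (−1.11) were the lower ones, the last within 2-fold when both libraries were scaled to the same sum.

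PRP-MNs against MNs asked what PRP added to needles. Here 5 members were at least 2-fold higher, against 7.16% of 13933 genes, and 1 was at least 2-fold lower, against 7.39%. The largest was the antagonist Il1rn, at 3.88, followed by Il1b at 3.34 and Il1rl1 at 3.32. Il1a (1.94) and Il1f9 (1.02) were also higher in PRP-MNs, and Il1f6 (−1.15) was the lower one. Il1f9 was within 2-fold with a pseudocount of 5 (0.91) and with libraries scaled to the same sum (0.99), and Il1f6 with a pseudocount of 5 (−0.86). The epidermal median was 0.63 in this comparison, positive for the only time among the 5.

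The combined library was also set against the sum of the single differences, each on the log2 scale against NC. Over 13273 genes the difference of PRP-MNs minus the sum of PRP and MNs had a median of −0.07, with 5% of genes below −1.47 and 5% above 0.90. Il1rn was 4th highest of all genes at 4.28. Il1rl1 (2.69), Il1b (2.34), Il1a (2.21), Il1f9 (1.68), Il18 (1.60) and Il1r2 (1.17) also lay above the 95th percentile. Il1f5 (0.23), Il1f6 (−0.15) and Il33 (−0.32) lay within the central range. A positive value has different make-ups here, since Il1b was high in MNs and higher in PRP-MNs, while Il1a was low in MNs and near NC in PRP-MNs.

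Of 8 receptor genes of the family other than the members, 2 exceeded NC by 2-fold or more in PRP-MNs, Il1r1 and Il18rap. Il1rl2 was lower by as much. Over all genes tested the shares were 17.6% higher and 11.5% lower. Il1r1 and Il18rap passed 2-fold in MNs as well, where 15.7% of all genes tested did so upward. Il18rap was below 1 FPKM in NC and was tested in both comparisons through the other library alone. With 1 FPKM required in both libraries, 5 of these receptor genes remained, of which 1, Il1r1, was at least 2-fold higher in each comparison. Among all genes kept in this way, 1702 of 11931 were higher in PRP-MNs and 1583 of 12163 in MNs. Il18rap, the accessory chain of the IL-18 receptor, was at 10.1 FPKM in PRP-MNs skin, 1.30 FPKM in PRP skin, 1.72 FPKM in MNs skin and 0.25 FPKM in NC skin. Its partner Il18r1 remained between 1.40 and 2.21 FPKM in all libraries. Il1rap, shared by the receptors of IL-1, IL-33 and IL-36, was at 23.1 FPKM in PRP-MNs skin, 9.02 FPKM in PRP skin, 17.4 FPKM in MNs skin and 11.8 FPKM in NC skin, and the inhibitory receptor Sigirr at 2.39 to 4.27 FPKM. Il1rapl1 reached at most 0.021 FPKM and Il1rapl2 was listed at 0.

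Among 13 receptor adaptors and kinases downstream 2 exceeded NC by 2-fold or more in PRP-MNs and none was lower by as much, beside 17.6% and 11.5% of all genes tested. Their median was 0.21, beside 0.14 over all genes tested. Myd88, the adaptor of the signalling receptors, was at 108 FPKM in PRP-MNs skin, 40.0 FPKM in PRP skin, 43.2 FPKM in MNs skin and 28.6 FPKM in NC skin, and the kinase gene Irak4 was the other. Traf6 (−0.70) and the ubiquitin ligase gene Peli1 (−0.55) were within 2-fold. Of 14 NF-kB subunits, kinases and inhibitors 4 were at least 2-fold higher and none was lower (median 0.56). These were the inhibitor Nfkbie (2.86), the subunits Nfkb2 (1.69) and Relb (1.23) and the cofactor Bcl3 (1.54). In PRP against NC none of either list passed 2-fold in either direction, against 7.78% of all genes tested higher and 1.46% lower. In MNs against NC Traf6, barely, and Rel (−1.34) passed it downward, against 7.12% of all genes tested. Rel was named after its value was seen.

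Of 18 genes that process or release the cytokines, 9 exceeded NC by 2-fold or more in PRP-MNs and 2 were lower by as much. The shares over all genes tested were 17.6% and 11.5%, and the median over the 18 was 1.01. Of the 18, 4 reached 1 FPKM in PRP-MNs and not in NC. Nlrp3, a sensor of the inflammasome, was at 41.5 FPKM in PRP-MNs skin, 1.28 FPKM in PRP skin, 2.81 FPKM in MNs skin and 0.44 FPKM in NC skin, and caspase-1 (Casp1) at 23.5, 12.3, 16.8 and 9.33 FPKM in the same libraries. The adaptor that joins them, Pycard, was lower in PRP-MNs at 9.95 FPKM, with 31.1 FPKM in PRP skin, 19.6 FPKM in MNs skin and 51.6 FPKM in NC skin. The pore-forming gene Gsdmd (2.97), the protease gene Ctss (4.10) and Casp4 (2.37) were higher, and the other lower gene was the epidermal gasdermin Gsdma (−2.11), named after its value was seen. Of the neutrophil proteases that can trim IL-1 and IL-36, named after their values were seen, Elane was at or below 0.13 FPKM and Ctsg at or below 0.31 FPKM. The third, Prtn3, was at 1.80 FPKM in PRP-MNs skin, 1.84 FPKM in PRP skin, 2.31 FPKM in MNs skin and 0.25 FPKM in NC skin, past 2-fold above NC in each.

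Of 20 genes known to be induced by IL-1 or IL-36, 17 exceeded NC by 2-fold or more in PRP-MNs and 1 was lower by as much, against 17.6% and 11.5% of all genes tested. The median over the 20 was 2.63, and 7 of the 17 reached 1 FPKM in PRP-MNs and not in NC. Cxcl5, a neutrophil attractant, read 244 FPKM in PRP-MNs skin, 1.74 FPKM in PRP skin and 35.6 FPKM in MNs skin, and NC had it listed at 0. Cxcl2 was at 305 FPKM in PRP-MNs skin, 6.43 FPKM in PRP skin, 2.36 FPKM in MNs skin and 2.93 FPKM in NC skin, and Cxcl3 was at 62.6 FPKM in PRP-MNs skin and at most 1.81 FPKM in the others. Thus Cxcl2 and Cxcl3 were high in PRP-MNs alone, whereas the acute-phase gene Saa3 was higher in PRP (501 FPKM) and MNs (277 FPKM) than in PRP-MNs (86.2 FPKM), with 4.40 FPKM in NC skin. Ccl20, the keratinocyte attractant of T and dendritic cells, was the only lower gene (−3.07) and was named after its value was seen. Several of these genes respond to other cytokines as well. Past 2-fold, 4 of the 20 were higher and none was lower in PRP against NC, against 7.78% and 1.46% of all genes tested, and 8 were higher and 2 lower in MNs against NC, against 15.7% and 7.12%.

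Transcripts of cytokines that act beyond Il33 and Il18 were near the detection floor. Il4, Il5, Il9 and Il13, the type 2 cytokines, read at most 0.28 FPKM in any library. Of the 5 genes tested on that list Arg1, an enzyme of alternatively activated macrophages, was higher in PRP-MNs than in NC (1.71) and Retnla was lower (−3.91). Areg differed by 0.10 and the eosinophil attractant Ccl11 by 0.87. Of 8 genes of the IL-18 and IL-12 axis 2 were tested, Stat4 (1.38) and Il12rb2 (−1.32), and interferon gamma itself read at most 0.21 FPKM.

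**Figure D5:**
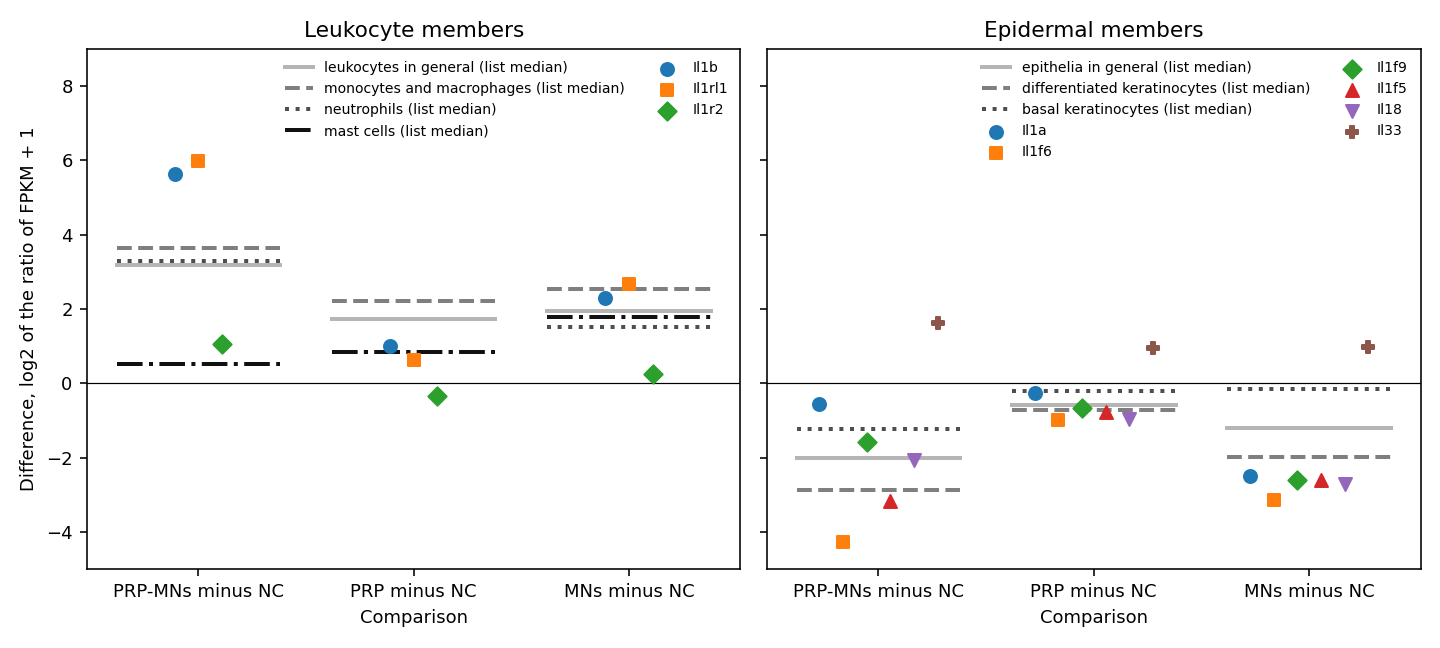
Log2 differences from NC of the leukocyte members (left) and epidermal members (right) as points, with the medians of the tested genes of cell type marker lists as horizontal lines, for PRP-MNs, PRP and MNs. Il1b and Il1rl1 lay above the median of every leukocyte list in PRP-MNs, Il33 lay above the median of every epithelial list in all 3 comparisons, and in PRP minus NC the neutrophil and mast cell lines coincide at 0.84.

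In PRP-MNs against NC, most markers of leukocytes in general, monocytes and neutrophils were higher, as were the leukocyte members. The counts below for PRP-MNs stand beside 17.6% of all genes tested at least 2-fold higher and 11.5% lower. In PRP against NC, 8 of 10 general leukocyte genes were at least 2-fold higher (median 1.72), beside 7.78% of all genes tested. So were 10 of 12 monocyte and macrophage genes (median 2.22). None of the 3 leukocyte members was (median 0.63), but with a pseudocount of 0.1 Il1b (1.06) and Il1rl1 (1.07) passed 2-fold. Of 10 genes of leukocytes in general 9 exceeded NC by 2-fold or more in PRP-MNs (median 3.19), and their summed level was 1137 FPKM in PRP-MNs skin, 413 FPKM in PRP skin, 472 FPKM in MNs skin and 173.5 FPKM in NC skin. The 12 monocyte and macrophage genes were all at least 2-fold higher (median 3.64), led by Ly6c2, whose value is uncertain beside its close copy Ly6c1, and Fcgr1. Their sums were 2966 FPKM in PRP-MNs skin, 994 FPKM in PRP skin, 954 FPKM in MNs skin and 228 FPKM in NC skin. Of all 12 neutrophil genes 8 were at least 2-fold higher and none was lower by as much (median 1.81 over the 12), and 4 of the 8 reached 1 FPKM in PRP-MNs and not in NC. Csf3r was at 89.5 FPKM in PRP-MNs skin and 0.74 FPKM in NC skin, and Trem1 at 45.0 FPKM in PRP-MNs skin and 0.24 FPKM in NC skin. The granule gene Mpo was at 0 in all but MNs (0.051 FPKM), and Ltf, named after its value was seen, was lower at 0.17 FPKM in PRP-MNs skin and 0.55 FPKM in NC skin. The neutrophil genes summed to 1066 FPKM in PRP-MNs skin, 408 FPKM in PRP skin, 186 FPKM in MNs skin and 235 FPKM in NC skin, mostly S100a8 and S100a9. Without these 2, left out after their values were seen, the sums were 235 FPKM in PRP-MNs skin, 31.5 FPKM in PRP skin, 38.4 FPKM in MNs skin and 9.52 FPKM in NC skin, so MNs stood below NC with them and above NC without them. In MNs against NC 4 of the 12 were at least 2-fold higher and none was lower by as much. Over all genes tested the shares there were 15.7% and 7.12%. The part of cell numbers in the members' differences was not tested.

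The difference of Il1b from NC, minus the median of the general leukocyte list, was 2.44 in PRP-MNs skin, −0.73 in PRP skin and 0.34 in MNs skin. For Il1rl1 the same value was 2.79 in PRP-MNs skin, −1.10 in PRP skin and 0.71 in MNs skin. In PRP-MNs the differences of Il1b and Il1rl1 from NC were above those of all 10 genes of that list, the highest of which was Cd53 (4.13). They lay within the range of the monocyte and neutrophil genes, where Ly6c2 (7.42) and Fcgr1 (6.39) were above both and Csf3r (5.71) was above Il1b. Il1r2 lay below that list throughout, at −2.12 in PRP-MNs skin, −2.08 in PRP skin and −1.70 in MNs skin. Of 10 genes of mast cells, a known site of Il1rl1, 3 exceeded NC by 2-fold or more in PRP-MNs and 1 was lower by as much (median 0.52). The higher ones were Hdc, the receptor gene Kit (1.12) and the tryptase gene Tpsab1 (1.07), and the lower one was Mrgprb2 (−3.18). Kit and Tpsab1 were below 1 FPKM in NC. With 1 FPKM required in both libraries, 5 of the mast cell genes remained, of which 1, Hdc, was higher, beside 1702 of 11931 genes. In MNs against NC 7 of the 10 were at least 2-fold higher and 1 was lower (median 1.42), beside 15.7% and 7.12% of all genes tested. Tpsab1 was at 1.34 FPKM in PRP-MNs skin, 0.36 FPKM in PRP skin, 0.31 FPKM in MNs skin and 0.11 FPKM in NC skin. The other 4 proteases of the list, named after their values were seen, were highest in MNs and differed between PRP-MNs and NC by −0.22 (Mcpt4) to 0.58 (Tpsb2), with Cpa3 at 7.22 FPKM in PRP-MNs skin, 17.7 FPKM in PRP skin, 34.0 FPKM in MNs skin and 7.01 FPKM in NC skin. Hdc, which makes histamine and which mast cells share with neutrophils and monocytes, was at 119 FPKM in PRP-MNs skin, 4.56 FPKM in PRP skin, 12.0 FPKM in MNs skin and 1.39 FPKM in NC skin. The regulatory T cell gene Foxp3, a marker of another cell type with Il1rl1, read at most 0.52 FPKM, and of 10 T and innate lymphoid genes 4 lay below NC by 2-fold or more in PRP-MNs and 1 above it by as much (median −0.67). The higher one, the cytokine receptor gene Il7r, was at 18.7 FPKM in PRP-MNs skin, 2.99 FPKM in PRP skin, 2.46 FPKM in MNs skin and 2.79 FPKM in NC skin. The lower ones were Gata3 (−2.81), Rora (−2.22), Cd3g (−1.88) and Cd3e (−1.38), the last named after its value was seen. In NC skin Gata3 was at 37.6 FPKM and Rora at 42.7 FPKM, above Cd3g at 17.1 FPKM and Cd3e at 5.33 FPKM. Which cells these transcripts came from was not tested.

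The 14 genes of differentiated keratinocytes summed to 2290 FPKM in PRP-MNs skin, 12177 FPKM in PRP skin, 4537 FPKM in MNs skin and 22797 FPKM in NC skin. Past 2-fold, 13 were lower in PRP-MNs (median −2.87), 2 in PRP skin (median −0.71) and all 14 in MNs skin (median −1.97). Lor (−4.09) and Flg2 (−4.08) were the lowest in PRP-MNs. Of all genes tested 11.5%, 1.46% and 7.12% were lower past 2-fold in PRP-MNs, PRP and MNs. Basal keratinocyte genes were less affected, with medians of −1.24, −0.20 and −0.15 in PRP-MNs skin, PRP and MNs. Set against the differentiated median in the same way, Il1f5 stood at −0.29 in PRP-MNs skin, −0.07 in PRP skin and −0.63 in MNs skin, and Il1f6 at −1.41, −0.29 and −1.16. Both were thus at or below the list in each comparison with NC. Il1f9 and Il18 lay above it in PRP-MNs (1.30 and 0.79) and below it in MNs (−0.62 and −0.74). Il1a stood at 2.32 and Il33 at 4.49 in PRP-MNs skin, the farthest above the list. Il33 is also made by endothelium and fibroblasts. Endothelial genes summed to 219.5 FPKM in PRP-MNs skin, 71.0 FPKM in PRP skin, 147.7 FPKM in MNs skin and 23.3 FPKM in NC skin. All 8 exceeded NC by 2-fold or more in PRP-MNs (median 2.90), beside 17.6% of all genes tested. The 8 fibroblast genes summed to 1051 FPKM in PRP-MNs skin, 2002 FPKM in PRP skin, 7454 FPKM in MNs skin and 993 FPKM in NC skin. The part of vessels or stroma in the Il33 values was not tested.

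Genes of most similar pattern are given for Il1b, Il1f6 and Il1rn, from a search among 10143 genes that reached 5 FPKM, by the distance between centred log2 values over the 4 libraries. Nearest to Il1b were Hdc (0.19), the neutrophil and monocyte receptor Trem1 (0.50) and the platelet chemokine gene Ppbp (0.55). Ppbp stood at 56.1 FPKM in PRP-MNs skin, 0.74 FPKM in PRP skin, 6.06 FPKM in MNs skin and 0.31 FPKM in NC skin. Il1f6 was closest to the growth factor gene Ereg (0.12), the calmodulin-like gene Calm5 (0.13) and the cornified envelope gene Lor (0.28). Ereg stood at 4.81 FPKM in PRP-MNs skin, 61.8 FPKM in PRP skin, 12.0 FPKM in MNs skin and 121 FPKM in NC skin, the same order as Il1f6. For Il1rn the nearest genes were farther away, namely Lce3b (0.69), the collagenase gene Mmp13 (0.70) and Ifi202b (0.72), of which Lce3b and Ifi202b belong to families of close copies and are uncertain. These distances rest on 4 libraries and describe likeness only.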

How the data were processed

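Total RNA of mouse skin was sequenced in 4 libraries, 1 per group. Per the labels' protocols, 1 μg of RNA went into NEBNext Ultra libraries for Illumina. The submitters' processing notes name GRCm38 as the build. Aligner, counting tool, annotation and strandedness are not given in the sources used here. A single table of FPKM, with a column for each library, was deposited by the authors. Of 25571 genes 22036 had Ensembl identifiers, and 22022 of these were found in GENCODE M21 (GRCm38), the source of coordinates.

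Only 20.7% to 24.6% of low values were whole fragments within a tolerance of 0.02, so no count test was run. Depth was taken from these steps. FPKM sums ran from 448607 to 515230, of which mitochondrial genes took 10.9% to 15.5%. Differences were log2 ratios with a pseudocount of 1, over genes at 1 FPKM or more in either library, and were counted at 2-fold, using Python 3.11.15, numpy 2.4.6, pandas 2.3.3 and scipy 1.17.1. The calculations were tested on simulated data.

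The members, classes, lists and comparisons were chosen with earlier results of these data known. Named were all members, the up to 4 genes per list with the largest difference between PRP-MNs and NC, 13 listed family and inflammasome genes, and the 3 genes most like Il1b, Il1f6 and Il1rn. The alternatives were other pseudocounts (0.1 and 5), filters, scalings, centring, Il1rn counted with the leukocyte members, and the epidermal class without Il18 and Il33. Counts over lists without the filter, or with 1 FPKM required in both libraries, were added after seeing the data. So were neutrophil sums without S100a8 and S100a9. Of the list genes 2 (Trac and Trdc) were not analysed here.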

Additional observations from a re-analysis of the deposited data

Results flagged for a closer look

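The antagonist Il1rn stood out because microneedles went with opposite directions in skin with and without PRP. PRP-MNs (256 FPKM) differed from PRP (50.8 FPKM) by 2.31 on the log2 scale, but MNs (16.4 FPKM) differed from NC (67.5 FPKM) by −1.97. These differences were thus 4.28 apart, which is the same quantity as the Il1rn value above against the sum of the single differences. With 1 library per group this difference was not tested.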

How the results depend on the processing

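No paired analysis was possible because each group had 1 library. Of 349 recalculated member differences 333 kept their direction and side of 2-fold, 11 passed it newly, 5 no longer did, and none turned its direction. The alternative filters only choose which genes are tested, so the member differences under them were the same by construction. Without any filter the member counts and gaps were fixed in the same way. Of 70 member counts 64 were within 1.5 times the value given. PRP against NC carried most of the others. There the members at least 2-fold higher numbered 2 in place of 0 with a pseudocount of 0.1, 1 with all libraries scaled to the same sum and 2 when that sum left out mitochondrial genes. Those at least 2-fold lower numbered 1 with a pseudocount of 0.1 and 2 after centring. In PRP-MNs against MNs the 1 lower member became 0 with a pseudocount of 5. The gap between class medians in PRP against NC was 0.93 with a pseudocount of 5 and 0.86 with Il1rn among the leukocyte members, and 43 of 45 recalculated gaps stayed past 2-fold. It ranged from 5.59 to 7.99 in PRP-MNs against NC and from 3.86 to 5.06 in MNs against NC. Giving all libraries 1 FPKM sum shifted the all-gene median by 0.14 in PRP-MNs and 0.18 in MNs against NC. With a pseudocount of 5, 1350 genes were higher and 908 lower in PRP-MNs than in NC, in place of 2462 and 1607. The cause of these shifts was not tested. Depth did not limit the members, which were well above the floor of 3 fragments in every library, but it limits statements on Il4, Il5, Il9, Il13, Ifng and Mpo.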

Other observations

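Other cell type lists varied in the libraries beside the members. Over all 8 genes of wound keratinocytes, without the filter, the median difference from NC was 0.65 in PRP-MNs, 0.38 in PRP and 0.03 in MNs. Within that list Il24, a cytokine gene of injured epidermis, was at 15.0 FPKM in PRP-MNs skin, 0.34 FPKM in PRP skin, 8.12 FPKM in MNs skin and 0.13 FPKM in NC skin. As for Il1b, PRP-MNs was highest and MNs next. Genes of epithelia in general were lower, with medians of −2.00, −0.58 and −1.19 in PRP-MNs, PRP and MNs. In PRP-MNs against NC 17.6% of all genes tested were higher past 2-fold and 11.5% lower. Of 8 dendritic and Langerhans cell genes 4 were higher and 1 lower past 2-fold there. The lower one was Cd207, the Langerhans cell lectin gene, at 0.97 FPKM in PRP-MNs skin, 11.3 FPKM in PRP skin, 4.43 FPKM in MNs skin and 23.3 FPKM in NC skin, the order of Il1f6 and Il1f5. Sebaceous gland genes were highest in MNs, where the epidermal members other than Il33 were low, and had a median of −0.67 in PRP-MNs. All 8 were past 2-fold above NC in MNs (median 3.05), beside 15.7% of all genes tested.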
